A study of Mus musculus with 4 samples.

Results

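Interferon-stimulated genes are the genes that cells switch on when an interferon binds them, and 41 of them, named by symbol, were followed here in mouse Th17 cells with and without the kinase PRAK. Of the 41 symbols, 39 had a row in the deposited table of 17921 genes, and Mx1 and Mx2 were not analysed here. The members fall into Ifit, Oas and Oasl genes of the type I style (9 in the table), guanylate-binding proteins and immunity-related GTPases of the kind that interferon gamma induces (10), transcription factors (4), nucleic acid sensors (3), the ISG15 system (2) and other effectors (11).

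The 4 libraries were made from total RNA and sequenced on a BGISEQ platform. Naive CD4+ T cells came from 2 PRAK KO mice (KO 1 and KO 2) and 2 wild-type mice (WT 1 and WT 2), were polarised in vitro into Th17 cells, the helper T cells that secrete interleukin-17, for 72 h, and were all collected on day 3. PRAK is a protein kinase of the p38 pathway encoded by Mapkapk5, and the title of the series asks how it bears, with NRF2, on Th17 differentiation, redox balance and glycolysis. Each library is 1 mouse. The labels give the groups as wild type and PRAK KO and name no allele, strain, age or added interferon for any of them, and the cells were not sorted again after culture, so every cell type left in the dish is in the RNA.

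Total expected counts lay between 19418012 and 20125124 per library, and 15180 to 15737 genes had a count above 0. Mapkapk5 was lower in both KO libraries but still detected, at 35.6 and 38.4 counts scaled to library size as CPM in WT 1 and WT 2 and at 20.04 and 21.6 CPM in KO 1 and KO 2 (log2 fold change -0.83 ± 0.13 SE, adjusted p = 0.0194, edgeR quasi-likelihood test). The deleted part of the gene is not described in the labels. Cd3e, Cd4, Il17a and Il17f, which define T helper and Th17 cells, were detected in all 4 libraries. The KO libraries differed more from each other (chi-square per gene 59.1) than the WT libraries did (7.22). Of the 12680 genes that passed the filter on low counts, 1695 (13.4%) were called at an adjusted p under 0.05, 652 higher in KO (5.14%) and 1043 lower (8.23%). With scaling by library size alone the split was 918 higher and 864 lower, and the median over all genes moved from 0.02 to 0.12 (log2).

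Type I interferons signal through the receptor of IFNAR1 and IFNAR2 and the kinases JAK1 and TYK2. A complex that includes STAT2 and IRF9 then binds the interferon-stimulated response element (ISRE). Interferon gamma, the cytokine of Th1, CD8 T and NK cells, signals through IFNGR1, IFNGR2, JAK1 and JAK2 to the gamma-activated site (GAS). IRF1, itself a gamma target, binds elements close to the ISRE, so that many members answer to both kinds of interferon.

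The promoters of the members carry the letters of these elements in a larger share than the promoters of all genes do. RefSeq promoter windows of GRCm38.p6, from 250 bases before to 50 after the start, were matched for 32 of the 39 members by symbol or gene ID. The ISRE was searched on both strands as GAAA, any 2 bases and GAAA again (TTTC, any 2 bases and TTTC on the other strand), and the GAS as TTCNNNGAA, which is its own reverse complement. Neighbouring ISRE matches can overlap. Genes with several windows (32851 windows in all) were counted as holding a motif if any window did. An ISRE match lay in 21 of 32 members (65.6%) and in 1079 of the 27025 genes of the promoter table (3.99%). A GAS match lay in 9 of 32 (28.1%) against 2582 of 27025 (9.55%), and both in 6 (18.8% against 0.614%). The ISRE was found for 5 of 8 type I style genes and 7 of 8 gamma-induced GTPases, and the GAS for 2 of 8 and 4 of 8. Of members with a window, 6 of 6 that were called in KO cells (Stat2, which was lower, among them) held an ISRE match, as did 11 of 19 that were tested and not called. A GAS match was held by 33.3% of the called and 36.8% of the others. A match is a run of letters and does not show that a factor binds there.

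Stretches that hold matches before the start are printed with the matches in capitals, 5′ to 3′ along the gene's strand. Bst2, Irgm1, Cxcl10, Oas1a and Stat2 are shown because they were called in KO cells. The match of Ifih1, also called, lies after the start and is not printed. Isg15 and Ifit1 are shown as well-known interferon targets, of which Isg15 was tested and did not pass and Ifit1 lay below the filter on low counts.

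Bst2 (chr8:71537547-71537648, minus strand): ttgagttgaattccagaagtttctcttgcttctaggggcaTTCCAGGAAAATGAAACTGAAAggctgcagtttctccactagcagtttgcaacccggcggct
Irgm1 (chr11:48871421-48871490, minus strand): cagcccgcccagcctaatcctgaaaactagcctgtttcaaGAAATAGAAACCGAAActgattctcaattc
Cxcl10 (chr5:92349053-92349139, minus strand): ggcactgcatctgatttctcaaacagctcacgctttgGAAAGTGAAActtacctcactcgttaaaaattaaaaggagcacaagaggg
Oas1a (chr5:120907526-120907663, minus strand): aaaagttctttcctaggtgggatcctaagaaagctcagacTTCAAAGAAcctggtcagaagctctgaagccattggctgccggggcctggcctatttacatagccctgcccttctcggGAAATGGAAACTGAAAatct
Stat2 (chr10:128270248-128270325, plus strand): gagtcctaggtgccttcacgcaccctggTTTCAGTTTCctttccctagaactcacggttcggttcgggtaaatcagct
Isg15 (chr4:156200835-156200936, minus strand): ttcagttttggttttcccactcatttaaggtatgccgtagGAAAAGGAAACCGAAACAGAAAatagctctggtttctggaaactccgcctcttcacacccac
Ifit1 (chr19:34640745-34640853, plus strand): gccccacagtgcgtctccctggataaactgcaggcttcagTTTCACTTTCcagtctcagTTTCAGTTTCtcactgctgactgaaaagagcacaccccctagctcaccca

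In Bst2 a GAS match and a double ISRE match run into each other, and in Irgm1, Oas1a and Isg15 ISRE matches overlap. Duplicated genes share these stretches. Igtp and its neighbour Irgm2 are set beside each other because 82 of 85 aligned bases are identical and both hold a GAS match just before an ISRE match.

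Igtp (chr11:58199471-58199555, plus strand): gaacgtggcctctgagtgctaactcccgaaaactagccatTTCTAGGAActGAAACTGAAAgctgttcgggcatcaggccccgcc
Irgm2 (chr11:58214862-58214962, plus strand): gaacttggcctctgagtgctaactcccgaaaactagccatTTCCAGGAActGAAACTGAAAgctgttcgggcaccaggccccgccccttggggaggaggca

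Irf1 (chr11:53769884-53769972, plus strand): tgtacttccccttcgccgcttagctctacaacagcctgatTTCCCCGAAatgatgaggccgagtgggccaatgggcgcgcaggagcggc

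Irf1 held a GAS match and no ISRE match in its window. Ifit3 and Ifit3b were identical over the 124 bases compared around their ISRE matches.

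Th17 cells of both genotypes expressed the gamma-induced GTPases at far higher levels than the type I style genes. Levels between genes are compared here in TPM, which is scaled to gene length. In the order WT 1, WT 2, KO 1, KO 2, the 10 GTPase members summed to 396, 379.8, 452 and 474 TPM. The 9 type I style members in the table summed to 11.8, 9.88, 13.8 and 24.2 TPM. The GTPase sum was 33.5, 38.4, 32.9 and 19.6 times the type I style sum, lowest in KO 2, where the type I style sum was highest. Single genes did not all follow the sums. In the WT means, Iigp1 (0.345 TPM) and Gbp7 (2.46 TPM) lay below Ifit2 (4.6 TPM) and Oas3 (4.89 TPM). No test was run on these ratios, and in bulk RNA fewer cells of a type and less RNA per cell cannot be told apart.

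Among single members, Igtp, an immunity-related GTPase, had the highest mean level in both genotypes, at 169.9 TPM in WT and 183 in KO. In WT it was followed by Ifi27l2a (118 TPM), Ifi47 (69.7), Bst2 (54.3), Irf1 (50.6), Gbp2 (49.99), Stat2 (45.0) and Gbp5 (38.4). In KO cells Bst2 stood next to Igtp at 177 TPM, ahead of Ifi27l2a (129.8) and Gbp2 (74.2). The neighbours Bst2, Irf1 and Gbp2 did not separate in WT, where WT 2 held 50.8, 50.4 and 48.0 TPM. Of the 39 members, 16 had a mean WT level of at least 10 TPM, 10 lay from 1 to 10 and 13 lay under 1, among them Ifit1, Ifit3, Oas2, Rsad2 and Ifi44.

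**Figure D1:**
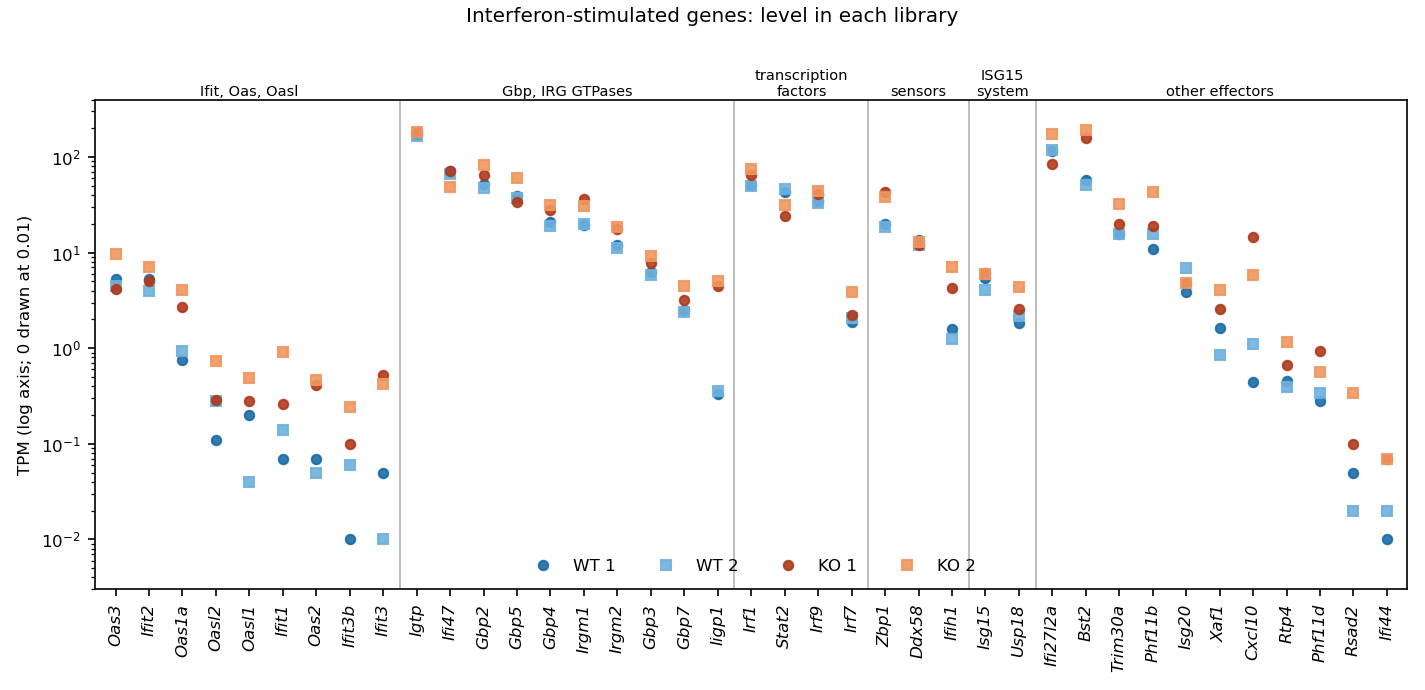
Level of each of the 39 members in the 4 libraries, in TPM on a log axis, with values of 0 drawn at 0.01; each point is 1 library (1 mouse). The Gbp and IRG GTPases reach 183 TPM (Igtp, KO mean), while the Ifit, Oas and Oasl genes stay under 10 TPM in every library. The GTPase genes Gbp3, Gbp7 and Iigp1 also stay under 10 TPM in every library.

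KO cells had more RNA of several members, and the genes that changed came from every class except the ISG15 system. Of the 32 members that passed the filter, 8 were higher in KO (25.0%, where 5.14% of all genes were), 1 was lower (3.12%, against 8.23%) and 23 did not pass. The higher genes were Bst2, Iigp1, Cxcl10, Ifih1, Zbp1, Irgm1, Oas2 and Oas1a, and the lower gene was Stat2. Of the 32, 28 had a positive log2 fold change (87.5%, against 51.8% of all genes), and the median was 0.55 (all genes 0.02), with a range from -0.81 to 3.67. Both KO values lay above both WT values for 22 members (68.8%, where 31.7% of all genes did), and both lay below for 2 (Stat2 and Ifi47, where 31.3% of all genes did).

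The other 7 members in the table lay below the filter (Ifit1, Ifit3, Ifit3b, Oasl1, Oasl2, Rsad2 and Ifi44). Iigp1, Cxcl10, Oas2, Rtp4 and Phf11d passed through the KO libraries, in that fewer than 2 WT libraries reached the filter's 0.501 CPM, so for these 5 the filter itself favoured a higher KO value. Among the remaining 27, 5 were higher, 1 was lower, 23 had a positive log2 fold change and the median was 0.43. The shares of all genes given above include genes that passed through the KO libraries. No share over the genes that passed in WT is given here, so the counts for the 27 have no like background. The counts moved with the libraries used. Without WT 1, 36 members were tested, and without WT 2, 37 were, in place of 32. Leaving out WT 1 or WT 2 left 4 members higher and 0 lower, when 1.59% and 1.85% of all genes were called higher. Leaving out KO 1 moved the median over the tested members from 0.55 to 0.83 (36 tested), and leaving out KO 2 moved it to 0.22 (32 tested). The members added without KO 1 were Ifit1, Oasl1, Oasl2 and Rsad2, which reached the filter only in KO 2.

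**Figure D2:**
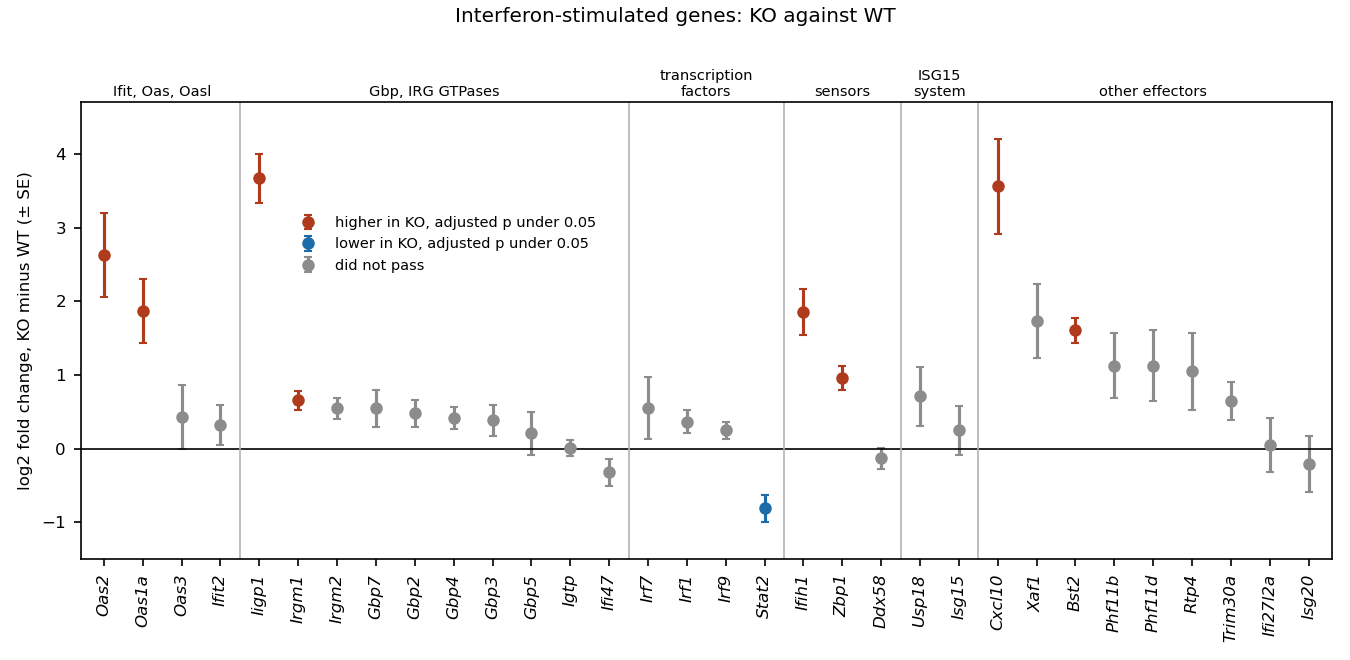
Log2 fold change of KO minus WT for the 32 tested members, with bars of 1 SE from the edgeR fit over 2 mice per genotype. Red points were called higher in KO, the blue point (Stat2) lower, and grey points did not pass; Iigp1 at 3.67 and Cxcl10 at 3.56 are the highest.

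Of the type I style genes, Oas1a and Oas2 rose in KO cells, and Ifit2 and Oas3 did not pass. The OAS enzymes make 2′-5′ oligoadenylates on double-stranded RNA, which activate RNase L. Oas1a (chromosome 5, 120896256 to 120907544) stood at 0.605 and 0.773 CPM in WT and at 1.96 and 3.21 CPM in KO 1 and KO 2. The groups did not overlap (0.689 ± 0.119 against 2.58 ± 0.883 CPM, mean ± SD, n = 2 each). Its log2 fold change was 1.87 ± 0.44 SE (adjusted p = 0.0479). The call was lost on leaving out WT 1 (0.28) or WT 2 (0.203).

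Oas2 (chromosome 5, 120730333 to 120749886) was close to the limit of detection in WT, with 3 and 2 expected counts there and 15 and 19 in KO. Its log2 fold change was 2.63 ± 0.57 SE (adjusted p = 0.0391). The ratio of the summed counts, scaled for library size, was 6.44 (95% exact Clopper-Pearson interval 2.5 to 21.1, counting error only). The call did not hold with DESeq2 (adjusted p = 0.134), with limma on log2 TPM (0.0748), without a filter (0.051), without WT 1 (0.257) or without WT 2 (0.387), and with a stricter filter the gene was not tested.

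Oas3, of the same gene cluster on chromosome 5, had the most reads of the Oas members and was divided by mouse. It stood at 13.8 and 11.8 CPM in WT, at 9.75 CPM in KO 1 and at 24.6 CPM in KO 2, so that the KO values lay on both sides of the WT values (log2 fold change 0.43, adjusted p = 0.543, and -0.40 without KO 2). Ifit2, a protein that binds viral RNA and slows its translation, stood at 11.3 and 8.78 CPM in WT and 10.02 and 15.1 CPM in KO (0.32, adjusted p = 0.46, and -0.01 without KO 2). Over the 4 tested genes the median log2 fold change was 1.15. It was 0.43 with a stricter filter (3 genes) and 1.94 with no filter (9 genes), and 0.39 over the same 4 genes with limma on log2(TPM + 1), a scale that understates the change of low genes.

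The remaining type I style genes were counted in single reads. Ifit1 had 2 and 4 expected counts in WT, 7 in KO 1 and 26 in KO 2. Ifit3 had 1 and 0 in WT and 10.39 and 8.47 in KO, and Ifit3b had 0 and 1.33 against 1.97 and 5.57. Oasl1 had 3 and 1 in WT and 6 and 11 in KO, and Oasl2 had 3 and 6 against 6 and 20. Summed over these 5 genes the WT libraries held 9 and 12.3 expected counts, KO 1 held 31.4 and KO 2 held 71, the highest. No fold change is given for them, since 3 counts, the limit that a count of 0 allows, correspond to 0.145 to 0.157 CPM here. The 4 Ifit genes lie within 99.5 kb of chromosome 19 (34550550 to 34650009), and RSEM divides reads between near-identical copies such as Ifit3 and Ifit3b by a model, so their single values are uncertain.

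Most of the gamma-induced GTPases were already abundant in WT cells, but Iigp1, Gbp7 and Gbp3 lay under 10 TPM there. A positive log2 fold change was held by 9 of 10 (90%, against 51.8% of all genes). Among these 9, Igtp stood at 0.01, with a sign that depended on the setting, and Gbp5 was lower without KO 2. Iigp1 and Irgm1 passed the test. These proteins attach to the vacuoles of intracellular pathogens and help to break or remove them. Iigp1, the GTPase IRGA6 (chromosome 18), was nearly silent in WT, at 0.513 and 0.627 CPM, and stood at 6.67 and 7.94 CPM in KO 1 and KO 2 (0.57 ± 0.081 against 7.31 ± 0.896 CPM). That is a 12.7-fold difference (log2 3.67 ± 0.33 SE, adjusted p = 0.0047), called in 12 of 12 alternative settings. Irgm1 (chromosome 11, 48865245 to 48871420), which regulates the other GTPases of its family and autophagy, stood at 23.2 and 24.1 CPM in WT and 39.3 and 35.7 CPM in KO (log2 fold change 0.66 ± 0.13 SE, adjusted p = 0.0316). Its groups did not overlap, but the call was lost on leaving out WT 1 (0.277) or WT 2 (0.25).

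Irgm2 had values close to those of Irgm1, at 22.8 and 22.2 CPM in WT and 30.9 and 35.0 CPM in KO, and lay just outside the threshold (log2 fold change 0.55 ± 0.14 SE, adjusted p = 0.0562). It passed with DESeq2 (adjusted p = 0.0489) and with scaling by library size alone (0.038). Igtp, within 23.2 kb of Irgm2 and with nearly the same proximal promoter letters, was at 187 and 190.0 CPM in WT and 184 and 195 CPM in KO. Its log2 fold change was 0.01 ± 0.11 SE (adjusted p = 0.978), with a sign that turned without WT 1 (-0.01), without KO 2 (-0.04) and without a filter. The difference between the changes of Igtp and Irgm2 was not tested. Ifi47, another GTPase of this family, lay lower in KO, at 67.5 and 65.0 CPM in WT and 61.8 and 44.0 in KO, and did not pass (-0.32, adjusted p = 0.287).

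Guanylate-binding proteins, large GTPases that coat pathogens and promote inflammasome activation, all had positive log2 fold changes in KO, and none of the 5 passed. Gbp2 stood at 69.1 and 66.0 CPM in WT and 79.2 and 109 CPM in KO (0.48, adjusted p = 0.132), and Gbp4 at 41.2 and 41.7 against 49.2 and 61.8 CPM (0.42, adjusted p = 0.12). For both genes the groups did not overlap, and KO 2 was the farther from WT. Gbp3 (0.39, adjusted p = 0.265) and Gbp7 (0.55, adjusted p = 0.206) had the same order. Gbp5, in the same 141 kb cluster on chromosome 3 (142496934 to 142638008) as Gbp2, Gbp3 and Gbp7, overlapped, with 64.2 and 63.8 CPM in WT, 51.4 CPM in KO 1 and 96.3 CPM in KO 2 (0.21, adjusted p = 0.667, and -0.32 without KO 2).

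Set side by side, 2 of 4 tested type I style genes and 2 of 10 GTPases were called higher (5.14% of all genes were), with median log2 fold changes of 1.15 and 0.45. The difference between the classes was not tested, and the first median rests on 4 genes. Oas2 in the first class and Iigp1 in the second passed the filter through the KO libraries. Without KO 1, 7 type I style genes were tested in place of 4. The added genes, Ifit1, Oasl1 and Oasl2, reached the filter only in KO 2, with 26, 11 and 20 expected counts. They had 1 to 6 in WT, so for them the filter itself favoured a higher KO value. Calls from that fit are therefore not compared between the classes. The GTPase median without KO 1 was 0.59 over the same 10 genes. Without KO 2 the medians were 0.72 (4 type I style genes) and 0.23 (10 GTPases). On leaving out WT 1 or WT 2 no type I style gene was called, against 1 GTPase, Iigp1.

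Among the transcription factors, Stat2 fell while Irf1, Irf7 and Irf9 did not pass. Stat2 (chromosome 10, 128270498 to 128292853), the STAT that is specific to type I and type III interferon signalling, was at 103 and 114 CPM in WT and at 51.7 and 71.9 CPM in KO 1 and KO 2 (108 ± 8.15 against 61.8 ± 14.2 CPM). The groups did not overlap, and the WT level was 1.75 times the KO level (log2 fold change -0.81 ± 0.18 SE, adjusted p = 0.0451). The call did not hold with scaling by library size alone (adjusted p = 0.0587), with limma on log2 TPM (0.0601), without WT 1 (0.072) or without WT 2 (0.162).

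Irf9, the DNA-binding partner of STAT2, was at 44.8 and 44.2 CPM in WT and 49.4 and 56.6 in KO (0.25 ± 0.12 SE, adjusted p = 0.234). Irf1, the gamma-induced factor, was at 58.6 and 60.1 CPM in WT and 68.3 and 85.5 CPM in KO (0.37 ± 0.15 SE, adjusted p = 0.149). Both genes lay higher in both KO libraries by less than the fit could separate from the spread. Irf7, the factor that amplifies interferon alpha production, was low throughout, at 1.85 and 2.04 CPM in WT, 1.94 CPM in KO 1 and 3.78 CPM in KO 2 (0.55, adjusted p = 0.42, and -0.01 without KO 2).

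Of the nucleic acid sensors, Ifih1 and Zbp1 rose and Ddx58 did not pass. Ifih1 (chromosome 2, 62595618 to 62646255) encodes MDA5, a sensor of long double-stranded RNA. It was at 3.59 and 3.45 CPM in WT and at 9.54 and 16.1 CPM in KO (3.52 ± 0.0982 against 12.8 ± 4.61 CPM), a 3.63-fold difference (log2 1.86 ± 0.31 SE, adjusted p = 0.0226), called in 12 of 12 alternative settings. Zbp1 (chromosome 2, 173206612 to 173218959), a sensor of Z-form nucleic acids that can start necroptosis, was at 13.0 and 13.2 CPM in WT and 27.2 and 23.7 CPM in KO (0.96 ± 0.16 SE, adjusted p = 0.0202). Its groups did not overlap, but leaving out WT 1 (0.129) or WT 2 (0.128) ended the call. Ddx58, which encodes the RNA sensor RIG-I, was at 36.4 and 33.8 CPM in WT and 29.5 and 34.5 CPM in KO (-0.13, adjusted p = 0.554), so that the related RNA sensors differed in their values. That difference was not tested.

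The genes of the ISG15 system were low and did not pass the test. Isg15, the ubiquitin-like modifier that is among the most inducible interferon targets, was at 2.15 and 1.66 CPM in WT and 2.23 and 2.35 CPM in KO (0.25 ± 0.33 SE, adjusted p = 0.642). Its promoter holds 3 overlapping ISRE matches. Usp18, the protease that removes ISG15 and restrains IFNAR2 signalling, was at 1.74 and 2.14 CPM in WT, 2.27 CPM in KO 1 and 4.08 CPM in KO 2 (0.71 ± 0.40 SE, adjusted p = 0.292). For Isg15 the SE is larger than the difference, and a difference of that size was not detectable with these libraries.

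Bst2 and Cxcl10 rose among the other effectors. Bst2 (chromosome 8, 71534255 to 71537472) encodes tetherin, which holds budding virus at the cell surface. It was at 23.3 and 21.1 CPM in WT and at 59.1 and 76.5 CPM in KO (22.2 ± 1.53 against 67.8 ± 12.3 CPM), a 3.05-fold difference with no overlap (log2 1.61 ± 0.17 SE, adjusted p = 0.00683). Cxcl10 (chromosome 5, 92346638 to 92348889), a chemokine that draws CXCR3-bearing T cells, was at 0.256 and 0.68 CPM in WT, at 7.84 CPM in KO 1 and at 3.33 CPM in KO 2. Its log2 fold change was 3.56 ± 0.65 SE (adjusted p = 0.027), and moved to 2.82 without KO 1 and to 4.41 without WT 2. Both genes were called in 12 of 12 alternative settings. Cxcl10 was one of the few members with KO 1 above KO 2.

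The other 7 tested effectors did not pass, and most of them stood highest in KO 2. Phf11b, a PHD finger gene, was at 7.28 and 10.8 CPM in WT, 11.7 CPM in KO 1 and 27.9 CPM in KO 2 (1.13 ± 0.44 SE, adjusted p = 0.15), and its neighbour Phf11d at 0.415 and 0.514 against 1.26 and 0.812 CPM (1.13 ± 0.48 SE, adjusted p = 0.173). Reads of these paralogs, which together span 44.5 kb of chromosome 14, may have been divided between them. Xaf1, a pro-apoptotic gene, was at 1.34 and 0.53 CPM in WT and 2.73 and 3.46 CPM in KO (1.73 ± 0.50 SE, adjusted p = 0.0814).

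Trim30a (0.65, adjusted p = 0.161) and Rtp4 (1.05, adjusted p = 0.234) had KO values above both WT values, and Isg20, a 3′-5′ exonuclease gene, did not (-0.21, adjusted p = 0.734, and 0.21 without WT 2). Ifi27l2a, the second most abundant member in WT, was at 27.5 and 29.1 CPM in WT, 18.1 CPM in KO 1 and 40.7 CPM in KO 2 (0.05, adjusted p = 0.94, and -0.65 without KO 2). Its KO values lay on both sides of the WT values, as those of Oas3 and Gbp5 did. Rsad2, the gene of viperin, had 2 and 1 expected counts in WT and 4 and 14 in KO, and Ifi44 had at most 2 in any library.

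KO 2 lay above KO 1 for 27 of the 32 tested members (84.4%), where it did for 50.2% of all genes. The median log2 ratio to the WT mean was 0.22 in KO 1 and 0.69 in KO 2, and 0.00 in both for all genes. The exceptions with KO 1 above KO 2 were Cxcl10, Phf11d, Ifi47, Zbp1 and Irgm1. Since each KO library is 1 mouse, this spread is between animals or their cultures, and it is part of the error of every member above.

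**Figure D3:**
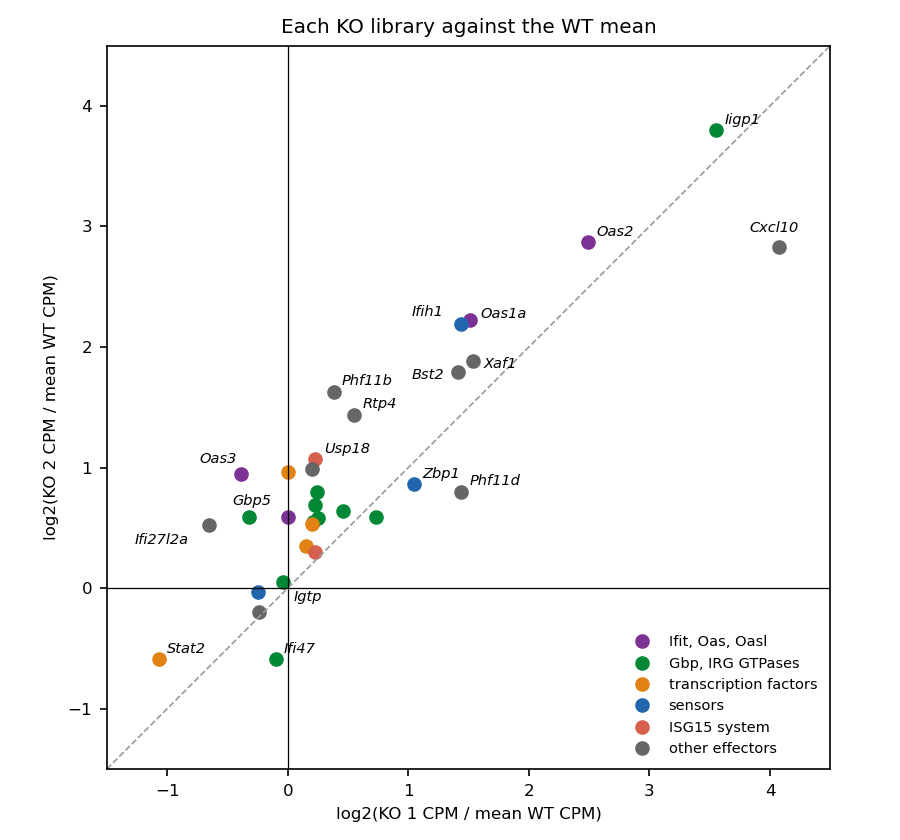
Log2 ratio of KO 1 (horizontal) and KO 2 (vertical) to the mean WT CPM for the 32 tested members, coloured by class, with the dashed line where both are equal. Most points lie above the line (27 of 32), and Oas3, Gbp5 and Ifi27l2a lie below 0 in KO 1 and above 0 in KO 2.

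Of 21 interferon ligand genes listed, 8 had a row in the table, and apart from Ifng these were at or near 0. Ifng, which encodes interferon gamma, stood at 8 and 9.72 CPM in WT, 53.8 CPM in KO 1 and 100.2 CPM in KO 2 (3.12 ± 0.33 SE, adjusted p = 0.00738). The other 7 ligand genes in the table lay below the filter, with 1, 6.54, 2.91 and 9.38 expected counts in all in WT 1, WT 2, KO 1 and KO 2. Ifna1 and Ifna6 had no count in any library, and the other 13 ligand genes, Ifnb1 among them, were not analysed here. KO 2 was the library with the higher Ifng and with the higher values of most members, over 2 mice and with no test.

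Most receptor and signalling genes did not pass. Of all genes, 5.14% were higher and 8.23% lower. The lower share was larger than that for receptors and inhibitors (20% each). The higher share was larger for JAK-STAT and interferon regulatory factor genes (15.4%). These shares rest on 1 to 3 genes each. A positive log2 fold change was held by 20% of 5 tested receptor genes, 53.8% of 13 JAK-STAT and interferon regulatory factor genes and 33.3% of 15 inhibitors. The share over all genes was 51.8%. Ifngr2, the signalling chain of the gamma receptor, fell from 107 and 126 CPM in WT to 63.0 and 74.3 CPM in KO (-0.76 ± 0.15 SE, adjusted p = 0.0302, and 0.0566 without WT 1 and 0.217 without WT 2). Ifngr1 (-0.47, adjusted p = 0.256), Ifnar1 (-0.18, adjusted p = 0.559) and Ifnar2 (-0.08, adjusted p = 0.791) did not pass, nor did Il10rb, a chain of the type III receptor (0.05, adjusted p = 0.832), and the sign of Ifnar2 turned with scaling by library size alone (0.02). Ifnlr1, the other type III chain, lay below the filter. In all 1 of 5 tested receptor genes was lower (20%) and none higher. Their median was -0.18, and it moved to 0.05 without KO 1 and to -0.45 without KO 2. The kinase genes Jak1 (0.01, adjusted p = 0.975), Jak2 (-0.02, adjusted p = 0.95) and Tyk2 (-0.15, adjusted p = 0.392) did not pass, and the sign of Jak2 turned with library size alone (0.08).

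Of 13 tested JAK-STAT and interferon regulatory factor genes, 2 rose (15.4%), with a median of 0.01. Irf5, a factor of myeloid and B cells, rose from 12.3 and 10.9 CPM to 26.0 and 32.3 CPM (1.33, adjusted p = 0.0128), and Irf2bp2, a corepressor, rose by 0.64 (adjusted p = 0.0439, and 0.204 without WT 1 and 0.329 without WT 2). Irf4 (-0.49, adjusted p = 0.0863) and Ciita (1.44, adjusted p = 0.106) did not pass. Of 15 inhibitors of interferon signalling, 3 fell (20%) and 1 rose (6.67%). Ptpn2, a phosphatase of the JAKs, fell from 140.2 and 152 CPM to 82.9 and 87.7 CPM (-0.77, adjusted p = 0.0149), and Socs3, a feedback inhibitor of cytokine receptors, fell from 471 and 506 CPM to 197 and 271 CPM (-1.06, adjusted p = 0.025). Samhd1, a nucleotide hydrolase, fell (-0.88, adjusted p = 0.0349), and Trex1, the exonuclease that clears cytosolic DNA, rose (0.79, adjusted p = 0.0305). Socs1, the main brake on gamma signalling, did not pass (-0.17, adjusted p = 0.396). Without WT 2 none of the 4 calls held, and without WT 1 that of Socs3 did.

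Among 13 sensors and adaptors that act upstream of interferon, Dhx58 fell and Tlr7 rose, 7.69% in each direction and near the shares of all genes (8.23% and 5.14%). Dhx58 encodes LGP2, a regulator of MDA5 and RIG-I and usually itself induced by interferon. It was at 33.3 and 42.5 CPM in WT and at 2.86 and 6.46 CPM in KO (-3.02 ± 0.39 SE, adjusted p = 0.0113), the opposite direction to Ifih1, and moved to -3.73 without KO 2. Tlr7 was at 0.256 and 0.993 CPM in WT and 3.58 and 3.68 CPM in KO (2.53, adjusted p = 0.0485, and 0.157 without WT 1), with a log2 fold change of 1.86 without WT 1 and 3.79 without WT 2. Ticam1 (-0.57, adjusted p = 0.0765) and Tlr9 (2.17, adjusted p = 0.0791) did not pass.

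Interferon-induced genes outside the 41 were set beside the shares of all genes (5.14% higher, 8.23% lower), with no test. Of 58 tested further genes of the type I style 17 rose (29.3%) and 3 fell (5.17%), with a median of 0.51. Lgals3bp, a secreted glycoprotein, rose from 71.9 and 66.3 CPM to 155 and 179 CPM (1.27, adjusted p = 0.00624), and Slfn2, a Schlafen gene of T cell quiescence, from 79.8 and 65.4 to 190.2 and 177 CPM (1.34, adjusted p = 0.00703). Rnf213, a large ubiquitin ligase, rose by 0.87 (adjusted p = 0.016), while Ly6c1 fell by 0.91 on the log2 scale (adjusted p = 0.0153). The call of Rnf213 was lost without WT 1 (adjusted p = 0.0552) or WT 2 (0.131) and that of Ly6c1 without WT 1 (0.0707).

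Of 25 further gamma-induced genes 8 rose (32.0%) and 2 fell (8%), with a median of 0.73. KO 2 lay above KO 1 for 44% of them, for 69% of the further type I style genes and for 84.4% of the members. The share was 92.3% for the 13 genes of MHC class I presentation and 100% for the 5 tested receptor genes. Ifi30, a lysosomal thiol reductase gene of antigen-presenting cells, rose from 21.4 and 29.5 CPM to 86.2 and 81.3 CPM (1.72, adjusted p = 0.00697). Cd274, which encodes the checkpoint ligand PD-L1, rose from 31.7 and 34.4 to 66.8 and 100.3 CPM (1.34, adjusted p = 0.0195), and Cxcl9, the sister chemokine of Cxcl10, rose by 3.09 (adjusted p = 0.0157, and 0.0973 without WT 1 and 0.0994 without WT 2). H2-Ab1, an MHC class II gene, fell from 156 and 190.4 CPM to 73.5 and 61.6 CPM (-1.36, adjusted p = 0.00884). The other class II genes of this list did not fall. Cd74 (1.69, adjusted p = 0.0412) and H2-Eb1 (1.62, adjusted p = 0.046) rose. H2-Aa (1.61, adjusted p = 0.086), H2-DMb1 (0.77, adjusted p = 0.153) and H2-DMa (0.08, adjusted p = 0.874) did not pass. Of 13 genes of MHC class I presentation 1 (7.69%) was higher, the peptide-trimming enzyme gene Erap1 (0.53, adjusted p = 0.0349, and 0.365 without WT 1 and 0.379 without WT 2), with a median of 0.13. The immunoproteasome genes Psmb8 (-0.39, adjusted p = 0.143), Psmb10 (0.33, adjusted p = 0.165) and Psme2 (0.33, adjusted p = 0.109) did not pass. On leaving out either WT library, fewer of the further type I style and further gamma-induced genes were called higher. The medians of the 2 lists were then 0.51 and 0.64 (without WT 1) and 0.57 and 0.60 (without WT 2). They were 0.65 and 0.69 without KO 1, and 0.41 and 0.55 without KO 2.

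**Figure D4:**
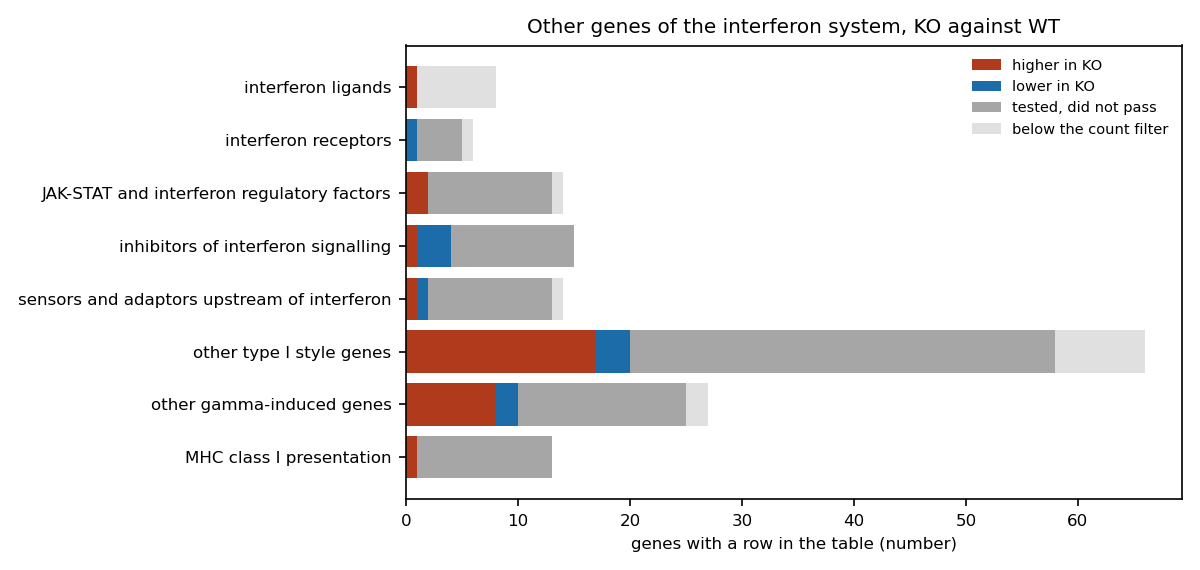
Number of genes called higher (red), called lower (blue), tested without passing (dark grey) and below the count filter (light grey) in each further list of interferon genes, KO against WT. The further type I style genes (17 higher and 3 lower of 58 tested) and gamma-induced genes (8 and 2 of 25) hold most of the calls. The receptors have 0 higher and 1 lower of 5 tested, the inhibitors 1 and 3 of 15, and the sensors 1 and 1 of 13. Of all genes, 5.14% were higher and 8.23% lower.

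Summed levels of other cell types' markers were higher in both KO libraries than in both WT libraries, for myeloid, CD8 T and NK, B cell and plasmacytoid dendritic cell lists alike. Most single markers outside the myeloid list did not pass. The share called higher was 50% for myeloid, 28.6% for plasmacytoid dendritic cell and 11.1% each for B cell and CD8 T and NK markers. It was 5.14% for all genes. The share called lower was 14.3% for plasmacytoid dendritic cell markers and 8.23% for all genes. Myeloid markers summed to 144 and 177 CPM in WT and to 248 and 425 CPM in KO 1 and KO 2, with 9 of 18 tested markers higher (median 2.29) and none at 0 in all libraries. They included the macrophage genes Csf1r, at 0.359 and 0.523 CPM in WT and 2.81 and 8.60 CPM in KO, and Mpeg1, at 0.769 and 1.15 against 13.0 and 18.1 CPM. Of the 18, 2 had a negative log2 fold change, Ccr2 (-0.48, adjusted p = 0.353) and Flt3 (-0.13, adjusted p = 0.873). Cst3 (0.03, adjusted p = 0.896) and Batf3 (0.11, adjusted p = 0.926) did not pass either. Fcgr1 and Clec10a, also myeloid markers, lay below the filter. Without WT 1 or WT 2 fewer myeloid markers were called higher, and their medians were 1.85 and 2.76. Without KO 1 the median was 2.75, and without KO 2 it was 1.52.

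Genes that mark CD8 T and NK cells, both makers of interferon gamma, summed to 81.7 and 189.9 CPM in WT and 416 and 336 CPM in KO, with 1 of 9 tested higher (Nkg7). KO 2 was above KO 1 for 22.2% of them, for 77.8% of the myeloid markers and for 84.4% of the members. The share was 71.4% for plasmacytoid dendritic cell, 55.6% for B cell and 41.7% for T helper and Th17 markers, and 50.2% for all genes. Cd8a stood at 11.8 and 49.1 CPM in WT and 185 and 104 CPM in KO (adjusted p = 0.083). Cd8b1 stood at 19.1 and 45.3 against 97.6 and 77.1 CPM (adjusted p = 0.0717). Both are large parts of these sums, did not pass and also differed between the WT libraries. Among the NK genes, Ncr1 and Klra8 had no count in WT 1 or WT 2 and at most 0.0833 CPM in KO, while Klrd1 was at 6.41 and 10.5 against 17.4 and 4.52 CPM and Eomes at 0.981 and 0.523 against 2.5 and 8.07 CPM (adjusted p = 0.0536). B cell markers summed to 55.0 and 115 against 133 and 122 CPM (1 of 9 higher). Those of plasmacytoid dendritic cells, the main makers of interferon alpha, summed to 109 and 127 against 134 and 164 CPM (2 higher and 1 lower of 7). Spib (2.18, adjusted p = 0.024) and Ly6d (2.13, adjusted p = 0.0478) rose, Il3ra fell (-0.61, adjusted p = 0.0325), and Siglech was at or under 0.137 CPM in every library. T helper and Th17 markers summed to 5133 and 4941 CPM in WT and 4812 and 3571 CPM in KO. Il17f, at 2224 and 1987 against 1994 and 637 CPM (adjusted p = 0.41), is a large part of this sum. Cd4 was at 739 and 854 against 516 and 939.5 CPM (adjusted p = 0.799), highest in KO 2. Of 12 tested markers Cd5 and Ccr6 rose (16.7%) and Il23r fell (8.33%). The part of the cell types above in the values of the interferon-stimulated genes was not tested.

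**Figure D5:**
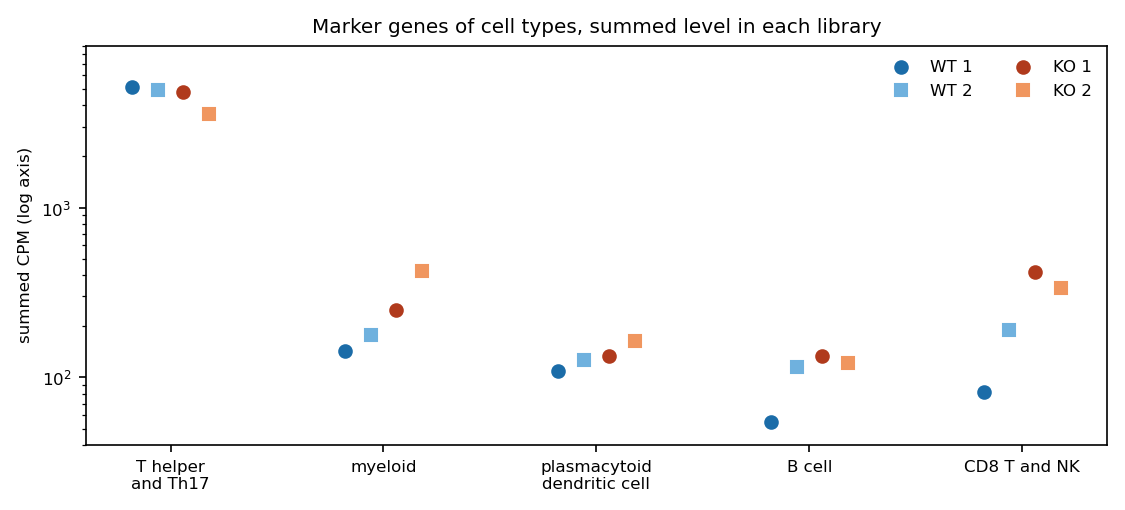
Summed CPM (log axis) of the marker genes of 5 cell types in each library. The sums of the 4 lists other than T helper and Th17 are higher in both KO libraries than in both WT libraries, with KO 2 highest for myeloid markers (425 CPM) and KO 1 for CD8 T and NK markers (416 CPM).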

How the data were processed

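RNA sequencing gave 4 libraries, from 2 PRAK KO and 2 WT mice. Per the file headers, the deposited table gives for each gene and library an expected count, an FPKM and a TPM. The expected counts were estimated by the authors and not normalised, and 69.4% of the values are whole. The deposited TPM values are scaled to gene length and to the same sum in each library, and the deposited FPKM values were not used. The build GRCm38.p6 and the tools RSEM 1.2.12, HISAT2 2.0.4 and Bowtie2 2.2.5 are listed, per the submitters' processing notes, with no role or order. Not given in the sources used here are the kit, strand, read filters and annotation release. If strand was not kept, overlapping and antisense genes share reads.

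Expected counts were rounded, filtered with filterByExpr (minimum count 10, minimum total 15; 12680 genes left, 5241 removed) and scaled by TMM. KO was compared with WT by the robust quasi-likelihood test of edgeR 4.0.16 (R 4.3.3), with genotype alone in the model and Benjamini-Hochberg adjustment over all genes tested. All adjusted p-values are from this test unless another is named. The SE of a log2 fold change is its size over the root of F. CPM values carry TMM scaling, are given in the order WT 1, WT 2, KO 1, KO 2 and are compared between libraries, while TPM is compared between genes. Residual degrees of freedom were 2 and prior ones 3.58. An exact permutation test of 2 against 2 cannot go below p = 0.333 (two-sided) and was not used. No gene set test was used. The steps were tested on simulated data.

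Alternatives were DESeq2 1.42.0, its size factors in edgeR, library size alone, non-robust dispersion, no filter, a stricter filter (1 CPM in every library of a genotype), limma 3.58.1 on log2(TPM + 1), the replicate number as a block and leaving out each library. All genes listed as members are named, Mapkapk5, Ifng, Socs1, Ifnar1, Ifnar2, Ifngr1, Ifngr2, Jak1, Jak2 and Tyk2 are named whatever their result, and of each further list up to 4 genes with the smallest p. Of the genes the rule names, 1 is not reported here. Marker genes, and other genes named beyond this, were chosen after their values were seen. The members and lists were chosen with earlier results of these data known. Coordinates and promoters are from RefSeq for GRCm38.p6.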

Additional observations from a re-analysis of the deposited data

How the results depend on the processing

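The call of Bst2, Cxcl10, Ifih1 and Iigp1 held in all 12 alternatives, that of Irgm1, Oas1a and Zbp1 in 10, of Stat2 in 8 and of Oas2 in 6. With the replicate number as a block, 2935 genes were called in all in place of 1695. Of 32 tested members 11 were then higher and 1 lower. The share of all genes called higher in that fit is not given here. The labels give separate mice per genotype, and the deviations of KO 1 and WT 1 correlated at 0.175 over only 2 pairs, so the numbers were not taken to pair the mice. DESeq2 also called Irgm2, Irf4, Ciita, Ticam1 and Tlr9, each in the same direction. Members called lower numbered 0 with library size alone and 0 with limma on log2 TPM. The median of the GTPases was 0.55 with library size alone, when that of all genes was 0.12 in place of 0.02. The median of the type I style genes was 0.39 with limma, 1.94 with no filter and 0.43 with the stricter filter. Leaving out 1 library gave from 693 to 5999 genes called in all, 4 to 27 members higher, 0 to 3 lower, and medians of 0.72 to 2.2 (type I style) and 0.23 to 0.59 (GTPases). A library left alone in its arm was assumed to vary like the other genotype. The type I style medians without KO 1, WT 1 or WT 2 include genes that the fit on all 4 libraries did not test.

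Signs turned for genes that were not called with all 4 libraries. They turned with library size alone for Ifnar2 (0.02) and Jak2 (0.08), with limma for Jak2 (0.08), with no filter for Igtp (-0.00171) and Jak1 (-0.00032), and with the block for Ifi27l2a (-0.05). Over the fits that each leave out 1 library, the values ran from -0.01 to 0.58 for Ifit2, -0.40 to 0.94 for Oas3, -0.32 to 0.59 for Gbp5, -0.04 to 0.05 for Igtp, -0.01 to 0.96 for Irf7, -0.55 to 0.21 for Isg20, -0.65 to 0.52 for Ifi27l2a, -0.45 to 0.05 for Ifnar1, -0.35 to 0.14 for Ifnar2, -0.07 to 0.08 for Jak1 and -0.20 to 0.14 for Jak2. Jak1 and Isg20 had both ends from leaving out a WT library, and the others had the low end without KO 2 and the high end without KO 1. The cause was not tested. Depth limits the type I style genes, of which 5 of 9 lay below the filter, and 2 mice per genotype give a poor estimate of the spread.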
